A study of Mus musculus with 5 samples.

Results

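The genes of the CD3 chains and of proximal T cell receptor (TCR) signaling were examined in thymic CD4 SP cells. The rule lists the members by symbol and uses no measured value. They are *Cd3d*, *Cd3e*, *Cd3g* and *Cd247*, which encode the CD3 delta, epsilon, gamma and zeta chains, the kinases *Lck* and *Zap70*, the adaptors *Lat* and *Lcp2*, and *Themis*. They make up 9 of the 55487 genes counted, and all 9 passed the filter on low counts.

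The RNA-seq libraries were made from sorted CD4 SP cells, 1 library per mouse, for 3 wild type (WT) mice and 2 *Tet2/3* DKO mice of the C57BL/6J strain, aged 21 to 30 days. *Tet2/3* DKO mice are Tet2-/-Tet3flx/flxCD4cre: *Tet2* is deleted in every cell of the animal, whereas the floxed *Tet3* is deleted by a Cre driven from *Cd4* elements, which acts in T cells from the stage that carries both CD4 and CD8. The labels name no allele or transgene for the WT mice. CD4 SP cells are thymocytes that have kept CD4 and lost CD8, and here they were sorted as CD24-low, CD4+, TCRβ+, CD8- cells negative for the CD1d tetramer that stains iNKT cells. The gate therefore asked for TCRβ on the cell surface, which the CD3 chains carry there.

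*Tet3*, the check of the labels, had 1082 to 1440 counts in WT, against 419 in *Tet2/3* DKO replicate 1 and 235 in replicate 2, and *Tet2* had 1286 to 1585, against 1919 and 1048, counts that do not resolve single deleted exons. Scaled for library size, *Tet3* was at 43.8 to 52.5 counts per 1000000 in WT, against 20.0 and 13.1. *Tet2* was at 52.4 to 57.8, against 91.5 and 58.6, so both *Tet2/3* DKO libraries lay above WT (edgeR log2 fold change 0.46, adjusted p = 0.135). *Tet2/3* DKO replicate 1, labelled male, had 744 counts of *Xist* and 7 of 4 Y-linked genes, and WT replicate 1, labelled female, had none of *Xist* and 6821 of the Y-linked genes, so for the members the fits that leave these libraries out are given beside those on all 5. By the study's methods all mice were male, so WT replicate 1 went against its label only, and a mix-up of labels was not tested. Reads on genes numbered 23529075 to 27267031 in WT and 17607089 to 21371743 in *Tet2/3* DKO libraries. Of the markers of other cells, those of NK cells summed to 31.5 to 42.6 CPM (counts per 1000000 of the library size that TMM scaling gives) in WT and 319 to 571 in *Tet2/3* DKO libraries, with 4 of 5 past the test, and those of gamma-delta T cells to 28.5 to 30.5 and 235 to 376, with 3 of 5 past it. The defining gamma-delta genes *Trdc* and *Sox13* were not among those 3, and the markers of immature CD4+ CD8+ thymocytes and CD8 cells summed to 88.6 to 98.2 CPM in WT and 48.6 to 50.5 in *Tet2/3* DKO libraries, with *Rag1* at 0 in all libraries, *Rag2* and *Ptcra* at no more than 3 counts, and *Dntt* at 253 to 560 and *Cd8b1* at 484 to 1967 counts. CD4 SP markers summed to 7329 to 7443 CPM in WT and 5201 to 5947 in *Tet2/3* DKO cells, with 4 of 7 past the test, all lower. This list holds the member *Cd3e*, and *Cd4*, *Cd5* and *Trac*, so it is not independent of the values below. The part of other cells in the values below was not tested, and in bulk RNA fewer cells of a type cannot be told apart from less RNA per cell.

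The αβ TCR binds antigen but has no signaling domain of its own. It is carried to the surface with the CD3 chains, whose cytoplasmic tails hold the tyrosine motifs known as ITAMs. On engagement LCK, held near the receptor by CD4, phosphorylates the ITAMs, ZAP-70 docks on them and phosphorylates the adaptors LAT and SLP-76 (the product of *Lcp2*), which assemble the complex that leads to calcium, ERK and NF-κB signaling. THEMIS binds this complex through GRB2 and is needed for thymocytes to complete positive selection. TET2 and TET3 oxidise methylated cytosine, mostly at CG sites.

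Because TET proteins act at CG sites, the sequence before the start of 4 members is shown: *Cd247* and *Themis*, the members with the lowest p-values (chosen after their values were seen), and *Cd3d* and *Cd3g*, which are divergent neighbours. Each is the 250 bases before the RefSeq start on the gene's own strand, from GRCm38.p6, with CG sites in capitals, and where RefSeq gives several starts, as for *Themis*, *Lck* and *Zap70*, it is the one nearest the GENCODE start. *Cd3d* lies at chr9:44981536-44981785 on the plus strand, *Cd3g* at chr9:44980432-44980681 on the minus strand, *Cd247* at chr1:165788431-165788680 on the plus strand and *Themis* at chr10:28668110-28668359 on the plus strand.
Cd3d: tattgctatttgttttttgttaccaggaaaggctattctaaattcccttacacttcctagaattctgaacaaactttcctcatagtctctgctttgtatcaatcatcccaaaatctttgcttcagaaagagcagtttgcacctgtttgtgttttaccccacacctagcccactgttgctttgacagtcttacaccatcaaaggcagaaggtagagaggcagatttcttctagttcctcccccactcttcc
Cd3g: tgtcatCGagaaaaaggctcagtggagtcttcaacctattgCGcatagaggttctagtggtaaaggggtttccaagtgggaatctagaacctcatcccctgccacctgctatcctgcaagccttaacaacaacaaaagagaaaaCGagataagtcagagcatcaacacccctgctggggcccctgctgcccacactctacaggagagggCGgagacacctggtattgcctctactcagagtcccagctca
Cd247: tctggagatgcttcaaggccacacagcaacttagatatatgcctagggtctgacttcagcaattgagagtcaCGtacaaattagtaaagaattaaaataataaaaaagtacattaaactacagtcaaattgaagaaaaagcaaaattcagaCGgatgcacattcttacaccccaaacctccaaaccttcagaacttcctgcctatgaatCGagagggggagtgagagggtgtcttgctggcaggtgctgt
Themis: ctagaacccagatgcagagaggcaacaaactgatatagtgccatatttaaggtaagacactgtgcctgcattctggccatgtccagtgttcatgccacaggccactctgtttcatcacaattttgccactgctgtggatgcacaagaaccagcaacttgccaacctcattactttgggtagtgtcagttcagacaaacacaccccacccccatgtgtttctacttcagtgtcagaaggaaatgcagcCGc

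The CG sites in this window numbered 0 before *Cd3d* and *Lcp2*, 1 before *Themis* and *Lck*, 3 before *Cd247*, 4 before *Cd3g*, 6 before *Zap70* and *Lat*, and 7 before *Cd3e*. The median over 32841 such windows of mouse genes was 6, so 6 of the 9 members had fewer than the median window. AGGAAG, a core of ETS factor sites, occurred on either strand in 7 of the 9 windows and in 29.5% of all windows. TGTGGT, a core of RUNX sites, occurred in 1 of the 9, that of *Lck*, and in 14.0% of all windows. These matches describe letters in the window and say nothing of binding or methylation, which were not analysed here.

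The members differed widely in level in WT cells. Per kb of merged exon, so that genes of different length can be compared, *Lck* had the highest level, 1191 ± 57.6 CPM per kb (SD, n = 3). It was followed by *Cd3g* at 819 ± 53.2, *Cd3d* at 745 ± 56.1, *Lat* at 441 ± 33.4, *Cd3e* at 172 ± 9.34, *Zap70* at 142 ± 5.48, *Cd247* at 134 ± 5.91, *Lcp2* at 121 ± 0.97 and *Themis* at 8.67 ± 0.62. The WT libraries of neighbours in this order overlapped for *Cd3g* and *Cd3d* and for *Zap70* and *Cd247*, and the other neighbours were apart in all 3 libraries, which for *Cd3e* and *Lat* rests on how overlapping reads were counted, as given below for *Cd3e*. The first 8 members lay above at least 96.0% of the 13510 tested genes with a length, and *Themis* above 63.7% of them. In *Tet2/3* DKO cells the order was the same but for *Cd247*, at 97.7 CPM per kb, which came after *Lcp2*, at 124. These lengths merge the exons of all transcripts. With the length of the principal transcript *Cd3g* came first and *Lck* second in both genotypes. *Lat*, at 989 CPM per kb in WT, then passed *Cd3d*, at 837, in WT but not in *Tet2/3* DKO cells. *Cd247*, at 439 CPM per kb in WT and 319 in *Tet2/3* DKO cells, passed *Zap70*, at 189 in WT, and stayed above *Lcp2*, at 148 and 152.

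**Figure D1:**
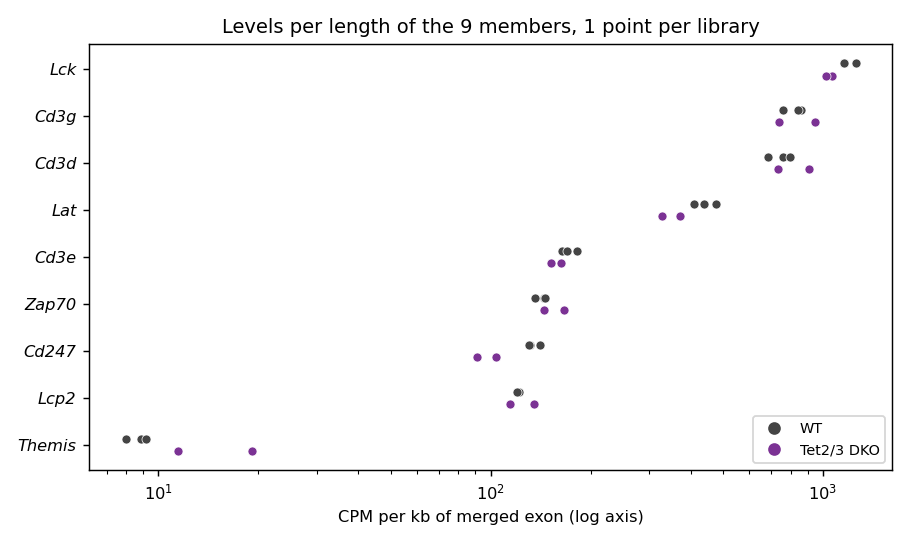
Level of each of the 9 members in CPM per kb of merged exon (horizontal log axis), with 1 point per library, WT in grey and *Tet2/3* DKO in purple. *Lck*, *Cd3g* and *Cd3d* lie at the top, *Themis* stands apart at the bottom, and in *Cd247*, *Lat*, *Lck* and *Cd3e* both *Tet2/3* DKO points lie left of all WT points.

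None of the 9 members passed the adjusted p threshold of 0.01 that the study used, in the quasi-likelihood test of edgeR with Benjamini-Hochberg adjustment over all genes, against 3.92% of the 13525 tested genes (2.42% higher and 1.5% lower in *Tet2/3* DKO cells). With reads counted by strand, too, none passed, against 3.73% of genes. At an unadjusted p under 0.05 there were 4, *Cd247*, *Lck*, *Lat* and *Themis*, against 23% of all tested genes. DESeq2, the tool the study applied that threshold with, called 2 members, *Cd247* and *Themis*, against 6.91% of the genes it tested, and so did edgeR at a threshold of 0.05, which 8.68% of genes passed. Both *Tet2/3* DKO libraries lay below all WT libraries in 4 members, *Cd3e*, *Cd247*, *Lck* and *Lat* (19.5% of all tested genes), and above them in 1, *Themis* (19.6%), so that the genotypes were apart in 5 of 9 members and in 39.1% of all tested genes. The gap in *Cd3e* did not hold when reads shared with an antisense gene were counted, as given below. The median log2 fold change of the members was 0.04, beside 0.01 over all tested genes, and 8 of 9 had a log2 fold change under 0.5 in size, beside 76.9% of all tested genes.

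**Figure D2:**
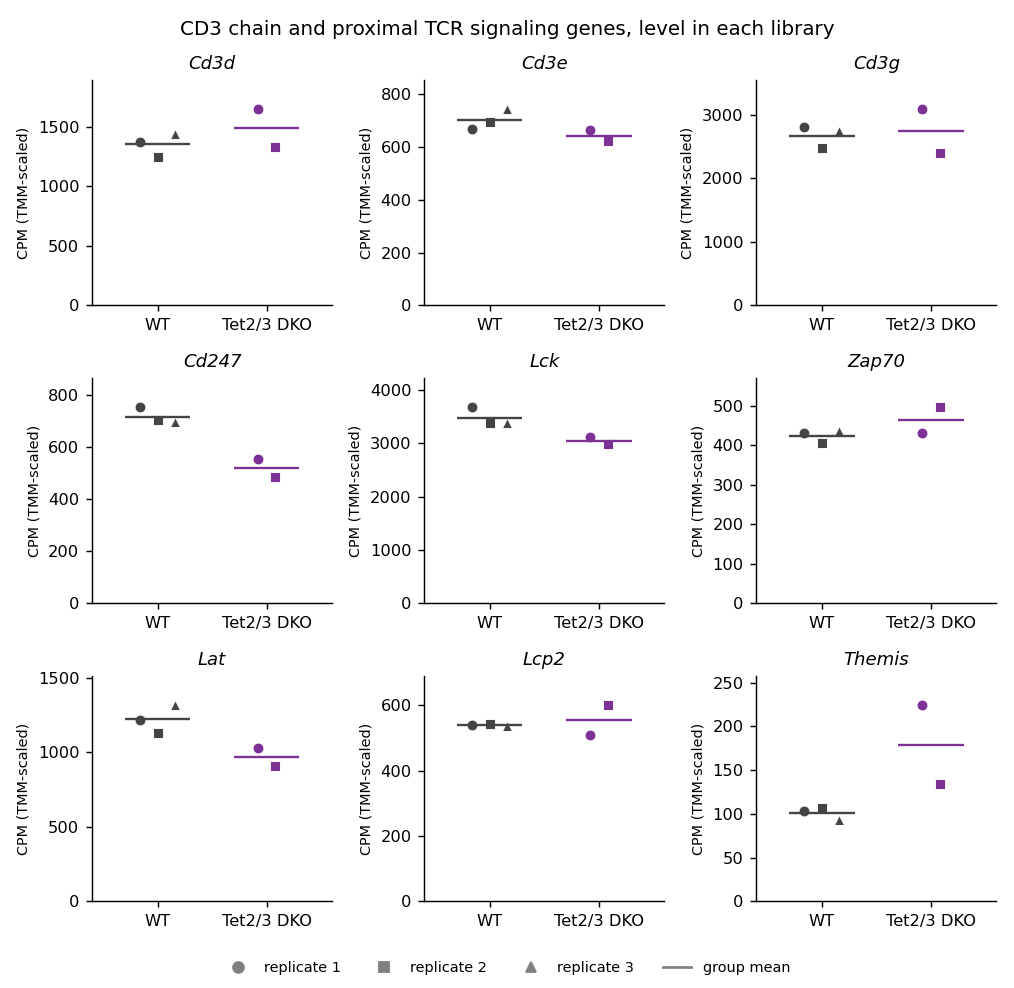
Level of each member in CPM (vertical axes from 0, 1 scale per gene) in the 3 WT and 2 *Tet2/3* DKO libraries, with the marker shape giving the replicate and the line the group mean. The genotypes are apart in *Cd3e*, *Cd247*, *Lck*, *Lat* and *Themis* and overlap in the other 4 members.

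Of the CD3 chain genes, *Cd3d* and *Cd3g* overlapped between the genotypes, and *Cd3e* and the zeta chain gene *Cd247* were lower in both *Tet2/3* DKO libraries than in any WT library, *Cd3e* only as counted without the reads it shares with an antisense gene. None of the 4 passed the threshold, and whether *Cd247* differed more than the others was not tested. *Cd3d* (ENSMUSG00000032094, mm10 chromosome 9, 44981786 to 44987339, plus strand) had 1374, 1242 and 1442 CPM in WT replicates 1 to 3, against 1647 in *Tet2/3* DKO replicate 1 and 1331 in replicate 2; the libraries keep this order below. The highest value was that of *Tet2/3* DKO replicate 1, and replicate 2 lay within the WT range. The log2 fold change of *Tet2/3* DKO over WT was 0.14 (standard error 0.11, 95% interval -0.11 to 0.38, adjusted p = 0.511, from edgeR here and below unless another tool is named), and it was -0.03 without *Tet2/3* DKO replicate 1.

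*Cd3g* (ENSMUSG00000002033, chromosome 9, 44969572 to 44980431, minus strand), which starts 1355 bases from *Cd3d* and is read the other way, had 2807, 2479 and 2742 CPM in WT, against 3091 and 2407 in *Tet2/3* DKO libraries. As in *Cd3d*, *Tet2/3* DKO replicate 1 was the highest library, but replicate 2 was the lowest of the 5. For *Cd3g* the log2 fold change was 0.04 (standard error 0.11, 95% interval -0.22 to 0.30, adjusted p = 0.890), and its sign turned to -0.16 without *Tet2/3* DKO replicate 1 and to -0.02 without WT replicate 2. The neighbours kept a near constant proportion, with 49.0, 50.1 and 52.6 counts of *Cd3d* per 100 of *Cd3g* in WT, against 53.3 and 55.3 in *Tet2/3* DKO libraries, where both values lay above the WT values.

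*Cd3e* (ENSMUSG00000032093, chromosome 9, 44998740 to 45009627, minus strand), the third gene of this cluster of 40056 bases, had 668, 695 and 743 CPM in WT, against 665 and 621 in *Tet2/3* DKO libraries. Both *Tet2/3* DKO libraries lay below WT, replicate 1 by little. For *Cd3e* the log2 fold change was -0.13 (standard error 0.08, 95% interval -0.32 to 0.06, adjusted p = 0.430) and -0.18 without *Tet2/3* DKO replicate 1. *Cd3e* is undercounted here because an antisense gene, Gm48719, overlaps it: reads on both are left out of counts taken without strand, which give Gm48719 1 to 4 counts against 7866 to 15282 by strand, and counting each strand separately gave 70.8% to 78.5% more reads on *Cd3e*. With those counts the log2 fold change was -0.12 (adjusted p = 0.456), and the level was 301 CPM per kb in WT. Since these reads carry no strand, that still leaves to Gm48719 about as many reads of the overlap as it gives to *Cd3e*. With all of them given to *Cd3e*, an alternative chosen after seeing the data, it had 410, 425 and 455 CPM per kb in WT, within the range of *Lat*, against 419 and 368 in *Tet2/3* DKO libraries, so that neither its gap from *Lat* nor the gap between the genotypes held.

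*Cd247* (ENSMUSG00000005763, chromosome 1, 165788681 to 165877277, plus strand) encodes the zeta chain, which bears more ITAMs than any other chain of the complex. It had 752, 702 and 694 CPM in WT, against 555 and 486 in *Tet2/3* DKO libraries. The lowest WT library lay well above the highest *Tet2/3* DKO library. The log2 fold change was -0.46 (standard error 0.09, 95% interval -0.66 to -0.26), or 0.73-fold, with an adjusted p of 0.0133, just outside the threshold. It was negative in every fit, and past the threshold without *Tet2/3* DKO replicate 1 (-0.56, adjusted p = 0.000861), without both libraries at odds with their sex labels (-0.53, adjusted p = 0.00305), without the filter on low counts (adjusted p = 0.00571) and with DESeq2 (adjusted p = 4.1e-05). Over all alternatives the adjusted p ran from 4.1e-05 to 0.0829. Of its exon length, 60.3% overlaps other annotated genes, Gm16565 on the same strand and *Pou2f1* on the opposite strand. Counting by strand added at most 3.26% to its reads, and the log2 fold change was then -0.45. Reads shared with Gm16565 are left out of either count, so this does not show how many *Cd247* lost to it.

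Set against the other 3 chains within each library, *Cd247* had 15.5, 15.9 and 14.1 counts per 100 counts of *Cd3d*, *Cd3e* and *Cd3g* together in WT, against 10.3 and 11.1 in *Tet2/3* DKO libraries. The genotypes did not overlap in this ratio, which does not depend on the scaling of the libraries. An exact two-sided permutation test of 3 against 2 libraries cannot give a p below 0.1, so these ratios are given without a test. The share of all gene ratios in which the genotypes are apart was not computed, for this or the other ratios given. Of single tested genes, 39.1% were apart. Each ratio but that of *Cd3d* to *Cd3g* holds *Cd247*, *Lck*, *Lat* or *Themis*, in which the genotypes were apart already.

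Neither kinase passed the threshold. *Lck* (ENSMUSG00000000409, chromosome 4, 129548344 to 129573641, minus strand) had 3682, 3388 and 3392 CPM in WT, against 3122 and 2987 in *Tet2/3* DKO libraries. All *Tet2/3* DKO values lay below all WT values. For *Lck* the log2 fold change was -0.19 (standard error 0.08, 95% interval -0.37 to -0.01, adjusted p = 0.198), it was -0.23 without *Tet2/3* DKO replicate 1, and over the alternatives the adjusted p ran from 0.0638 to 0.534.

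*Zap70* (ENSMUSG00000026117, chromosome 1, 36761798 to 36782818, plus strand) had 432, 406 and 436 CPM in WT, against 432 and 496 in *Tet2/3* DKO libraries. *Tet2/3* DKO replicate 1 lay within the WT range and replicate 2 above it. For *Zap70* the log2 fold change was 0.13 (standard error 0.09, 95% interval -0.08 to 0.33, or 0.95-fold to 1.26-fold, adjusted p = 0.456), and leaving out *Tet2/3* DKO replicate 1 gave 0.22, leaving out replicate 2 gave 0.01. There were 11.7, 12.0 and 12.9 counts of *Zap70* per 100 of *Lck* in WT, against 13.8 and 16.6 in *Tet2/3* DKO libraries. There were 174, 173 and 159 counts of *Cd247* per 100 of *Zap70* in WT, against 129 and 97.9 in *Tet2/3* DKO libraries. In both proportions the genotypes did not overlap, as they did not in *Lck* and *Cd247* alone.

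Neither of the adaptors that ZAP-70 phosphorylates passed the threshold, and whether they differed from each other was not tested. *Lat* (ENSMUSG00000030742, chromosome 7, 126363824 to 126369570, minus strand), the membrane scaffold, had 1216, 1132 and 1317 CPM in WT, against 1026 and 905 in *Tet2/3* DKO libraries. Both *Tet2/3* DKO libraries lay below WT. For *Lat* the log2 fold change was -0.34 (standard error 0.10, 95% interval -0.56 to -0.12, adjusted p = 0.0642). Leaving out *Tet2/3* DKO replicate 1 gave -0.43 and an adjusted p of 0.00862, the lowest over all alternatives, which reached 0.202, and leaving out both libraries at odds with their sex labels gave -0.44 and 0.0141.

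*Lcp2* (ENSMUSG00000002699, chromosome 11, 34046920 to 34092295, plus strand), which encodes the cytosolic adaptor SLP-76, had 538, 544 and 536 CPM in WT, against 509 and 601 in *Tet2/3* DKO libraries. The WT libraries were the closest of any member, and the *Tet2/3* DKO libraries lay on either side of them. The difference for *Lcp2* on the log2 scale was 0.04 (standard error 0.09, 95% interval -0.16 to 0.24, or 0.89-fold to 1.18-fold, adjusted p = 0.851), with 0.15 without *Tet2/3* DKO replicate 1 and -0.10 without replicate 2. There were 226, 208 and 246 counts of *Lat* per 100 of *Lcp2* in WT, against 202 and 151 in *Tet2/3* DKO libraries, both below the WT values.

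*Themis* (ENSMUSG00000049109, chromosome 10, 28668360 to 28883818, plus strand) had the largest difference among the members and the lowest level. It had 104, 107 and 93.2 CPM in WT, against 224 and 134 in *Tet2/3* DKO libraries. Both *Tet2/3* DKO libraries lay above WT, but they differed from each other by 0.74 on the log2 scale, against a range of 0.20 among WT libraries. The log2 fold change was 0.82 (standard error 0.18, 95% interval 0.41 to 1.24), or 1.77-fold, with an adjusted p of 0.0229. The size of this value turned on which *Tet2/3* DKO library was kept, with 0.40 (adjusted p = 0.0297) when replicate 1 was left out, 1.13 (adjusted p = 3e-06) when replicate 2 was, and 0.41 (adjusted p = 0.0775) without both libraries at odds with their sex labels. DESeq2 gave an adjusted p of 0.000362, and the alternatives spanned 3e-06 to 0.124. Within each library there were 2.82, 3.16 and 2.75 counts of *Themis* per 100 of *Lck* in WT, against 7.19 and 4.48 in *Tet2/3* DKO libraries, which did not overlap.

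The genes whose profile over the 5 libraries was most like that of *Themis*, by root mean square distance of centred log2 CPM among 7975 genes, were Gm2682 (distance 0.05), *Ipcef1* (0.08) and *Adam19* (0.09). Gm2682, annotated as a long intergenic RNA, had 176, 167 and 152 CPM in WT, against 345 and 216 in *Tet2/3* DKO libraries. Its adjusted p was 0.0220, and those of *Ipcef1* and *Adam19* were 0.0559 and 0.0779, so none of the 3 passed the threshold.

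**Figure D3:**
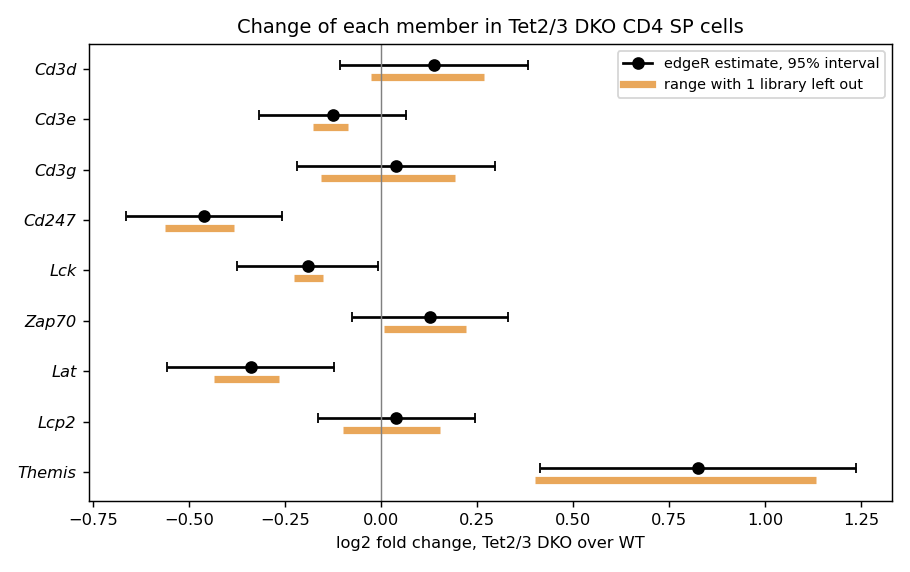
Log2 fold change of *Tet2/3* DKO over WT (horizontal axis) for each member, as the edgeR estimate with its 95% interval (black) and as the range of estimates with 1 library left out at a time (orange). The intervals of *Cd247*, *Lck*, *Lat* and *Themis* do not include 0, and the orange ranges of *Cd3d*, *Cd3g* and *Lcp2* cross 0.

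Among the 9 members, 5 had a log2 fold change above 0, as did 51.1% of all tested genes, and 4 had one below 0, and 6 kept 1 sign whichever single library was left out. The *Tet2/3* DKO libraries differed from each other by more than the range of the WT libraries on the log2 scale in 6 members, *Cd3d*, *Cd3g*, *Cd247*, *Zap70*, *Lcp2* and *Themis*. Replicate 1 was the higher of the pair in 7 members, and replicate 2 in *Zap70* and *Lcp2*.

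With WT replicate 1 alone left out, the log2 fold changes were 0.15 for *Cd3d*, -0.16 for *Cd3e*, 0.07 for *Cd3g*, -0.42 for *Cd247*, -0.15 for *Lck*, 0.14 for *Zap70*, -0.34 for *Lat*, 0.04 for *Lcp2* and 0.84 for *Themis*. None passed the threshold, the lowest adjusted p being 0.0829 for *Cd247*, and none turned in sign. With both libraries at odds with their sex labels left out, the values not yet given were -0.02 for *Cd3d*, -0.22 for *Cd3e*, -0.12 for *Cd3g*, -0.19 for *Lck*, 0.23 for *Zap70* and 0.15 for *Lcp2*, at adjusted p-values from 0.383 to 0.962. In that fit 1 of 9 members, *Cd247*, was past the threshold, against 9.57% of all tested genes.

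The other genes of the pathway were put in lists by role, with earlier results of these data known. The shares given here and below therefore describe these lists and test nothing. Of the 101 genes, 98 could be tested, and 8 passed the threshold (8.16%, against 3.92% of all tested genes), 3 higher and 5 lower in *Tet2/3* DKO cells. None of the 4 genes of the antigen-binding chains and the receptor gamma chain, none of the 6 other proximal kinases and none of the 36 effectors downstream of LAT and SLP-76 was among them, with 2, 2 and 7 of these at an unadjusted p under 0.05, which 23% of all tested genes reached. With DESeq2, 15 pathway genes passed, against 6.91% of all genes it tested. Among these were the effectors *Mapk3* (log2 fold change -0.55, adjusted p = 0.000485) and *Pik3cd* (-0.61, adjusted p = 0.0066), both lower. With any 1 WT library left out of the edgeR fit 4 pathway genes passed, *Cd5*, *Cd6*, *Cd8b1* and *Slamf6* each time. The share of all tested genes was then lower too, at 1.14%, 0.822% and 0.956% without WT replicates 1, 2 and 3.

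**Figure D4:**
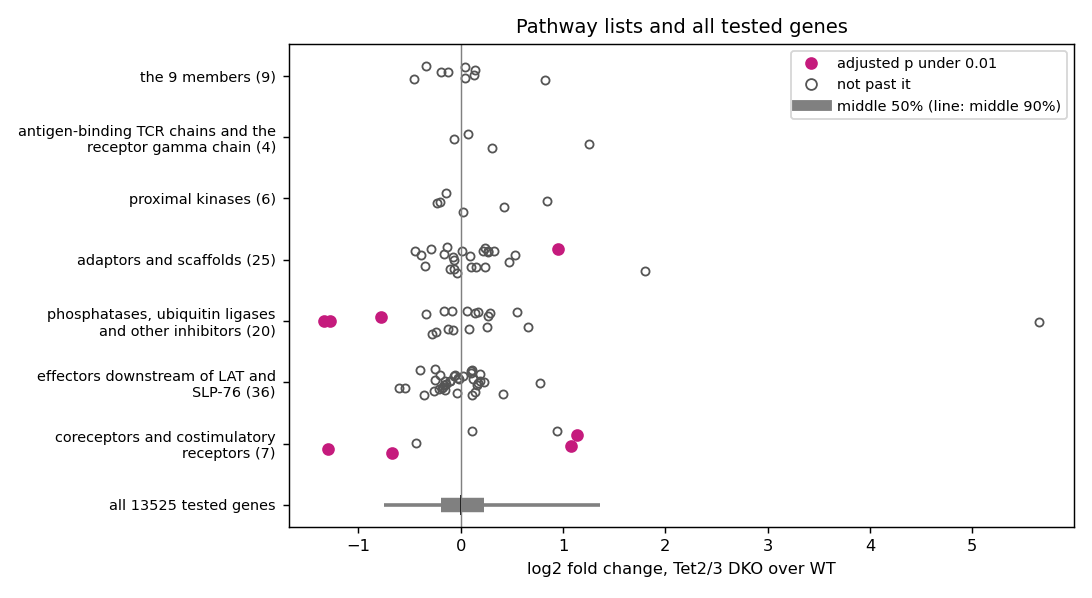
Log2 fold change of *Tet2/3* DKO over WT for the tested genes of each list, with filled points for genes with an adjusted p under 0.01 and open points for the others, spread vertically for visibility. The bottom row gives the middle 50% and middle 90% of all 13525 tested genes, from -0.75 to 1.36 for the latter, and filled points occur among adaptors, inhibitors and coreceptors and not among the members.

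None of the constant genes of the antigen-binding chains, the partners of the CD3 chains, passed the threshold. *Trac*, the constant gene of the TCR alpha chain, had 2652, 2428 and 2692 CPM in WT, against 2761 and 2201 in *Tet2/3* DKO libraries, and its log2 fold change was -0.06 (95% interval -0.30 to 0.18, adjusted p = 0.795). As in *Cd3g*, *Tet2/3* DKO replicates 1 and 2 were the highest and the lowest of the 5 libraries. The beta chain constant genes, which share near-identical sequence so that their reads are uncertain to divide, had log2 fold changes of 0.30 for *Trbc1* (95% interval 0.11 to 0.49, adjusted p = 0.0582) and 0.07 for *Trbc2* (95% interval -0.11 to 0.26, adjusted p = 0.664). In *Trbc1* both *Tet2/3* DKO libraries, at 1565 and 1454 CPM, lay above the WT libraries, at 1158 to 1293 CPM, and in *Trbc2* the genotypes overlapped. *Fyn*, the Src kinase that partly overlaps LCK in function, had a log2 fold change of -0.23 (adjusted p = 0.194). *Csk*, which phosphorylates the inhibitory tyrosine of LCK, had one of -0.20 (adjusted p = 0.269), and *Ptprc*, the CD45 phosphatase that removes that phosphate, one of -0.08 (adjusted p = 0.674).

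Among 20 phosphatases, ubiquitin ligases and other inhibitors, 3 passed the threshold (15%, against 3.92% of all tested genes), all of them lower in *Tet2/3* DKO cells. The direction was mixed at other settings. At a threshold of 0.05 edgeR also called *Cblb* (log2 fold change 0.55, adjusted p = 0.0402), *Socs1* (0.66, adjusted p = 0.0355) and *Rnf128*, described below, all higher. With DESeq2 at 0.01 *Socs1* (adjusted p = 0.0042) and *Rnf128* passed as higher too. *Cd5*, a surface receptor whose level is known to follow TCR signal strength in thymocytes, had 895, 941 and 886 CPM in WT, against 404 and 344 in *Tet2/3* DKO libraries, and fell by 1.28 on the log2 scale (standard error 0.10, adjusted p = 8.6e-05). *Cd6*, a related surface receptor, fell by 1.33 on the log2 scale (adjusted p = 0.00015). *Ubash3b*, which encodes a phosphatase acting on ZAP-70, fell by 0.78 (adjusted p = 0.003) and lost its call with any 1 WT library left out, at adjusted p-values up to 0.0286. *Rnf128*, an ubiquitin ligase named here for the largest value in the lists, after its values were seen, was counted 19, 9 and 15 times in WT, against 95 and 953 in *Tet2/3* DKO libraries and did not pass (log2 fold change 5.65, adjusted p = 0.0119). That log2 fold change was 2.99 without *Tet2/3* DKO replicate 2, 6.56 without replicate 1 and 6.81 without both libraries at odds with their sex labels. *Rnf128* passed as higher with DESeq2 (adjusted p = 4.49e-05), without the filter on low counts (0.00649) and with legacy moderation (0.00531). It missed the threshold with robust moderation (0.199) and with any WT library left out (0.0489 to 0.0864).

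Of 25 tested adaptors and scaffolds, 1 passed the threshold, which is 4% and near the 3.92% of all tested genes. With DESeq2 *Nck1* (log2 fold change 0.47, adjusted p = 0.000137), *Sh2d1a* (0.53, adjusted p = 0.000645) and *Shc1* (-0.45, adjusted p = 0.000221) passed beside *Lax1*. The same adaptors passed with edgeR at a threshold of 0.05. Of all tested genes 6.91% and 8.68% passed in these 2 settings. *Lax1*, a membrane adaptor related in form to LAT and known to limit receptor signaling, had 77.2, 79.1 and 75.4 CPM in WT, against 116 and 183 in *Tet2/3* DKO libraries, and rose by 0.95 on the log2 scale (adjusted p = 0.00717). Without *Tet2/3* DKO replicate 2 that value was 0.57 and without replicate 1 it was 1.24, and with robust moderation *Lax1* did not pass (adjusted p = 0.0130). Of 7 coreceptors and costimulatory receptors, 2 rose and 2 fell (57.1%, against 3.92% of all tested genes). *Icos* and *Slamf6* rose by 1.08 (adjusted p = 0.00532) and 1.14 (adjusted p = 0.000331) on the log2 scale. *Icos* was at 0.67 without *Tet2/3* DKO replicate 2 and at 1.39 without replicate 1, and did not pass with robust moderation (adjusted p = 0.0306). *Cd4*, whose product brings LCK to the receptor, fell by 0.67 (adjusted p = 0.0095), close to the threshold, which it missed with legacy moderation (0.0103) and with reads counted by strand (0.0105). *Cd8b1* fell by 1.29 (adjusted p = 0.000168), from 65.9 to 71.7 CPM in WT to 28.6 and 27.1 in *Tet2/3* DKO libraries. *Cd8a* had 70, 69 and 148 counts in WT, against 121 and 155 in *Tet2/3* DKO libraries. In CPM these were 2.71, 2.91 and 5.39, against 5.77 and 8.67, so the genotypes were apart, as in 39.1% of all tested genes. *Cd8a* did not pass (log2 fold change 0.94, adjusted p = 0.128), and the log2 fold change was 1.04 without both libraries at odds with their sex labels. In that fit 20 pathway genes passed, among them all 8 named above, and 9.57% of all tested genes did. *Cd4*, *Lax1* and *Icos* each lost their call with any 1 WT library left out.

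**Figure D5:**
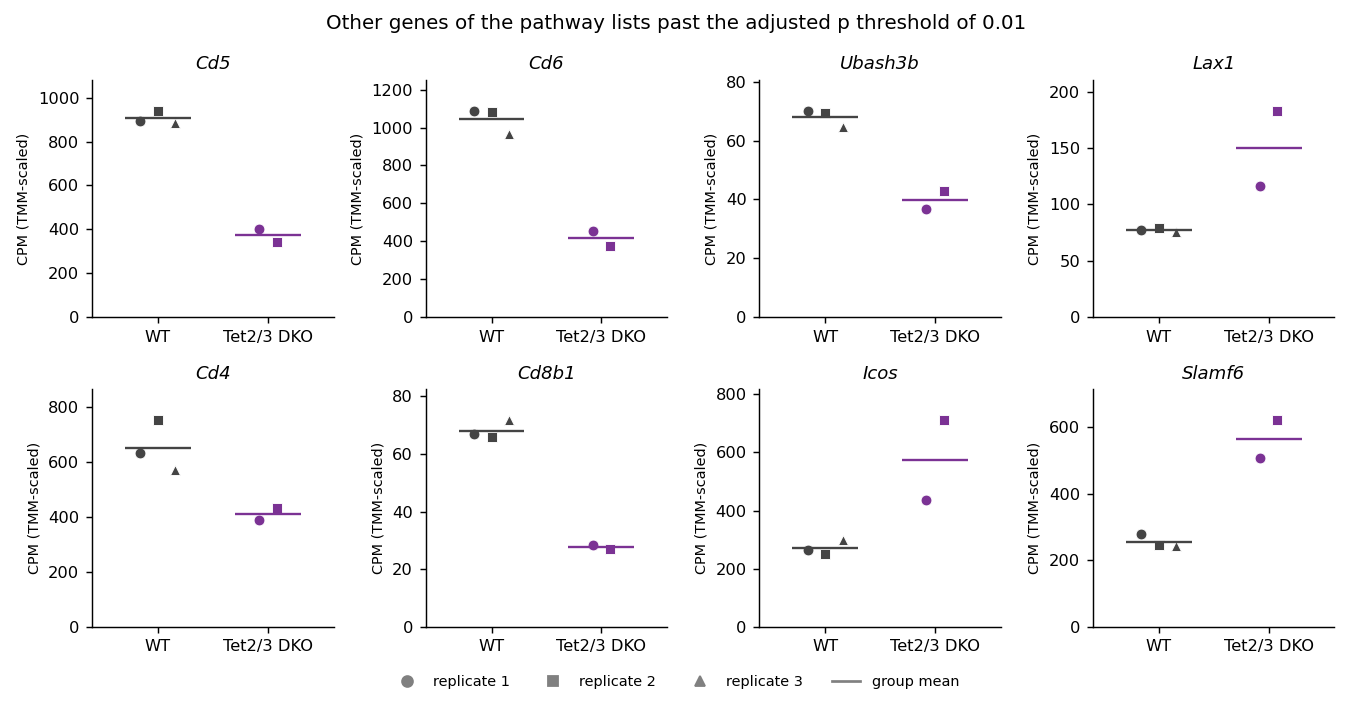
Level in CPM (vertical axes from 0, 1 scale per gene) of the 8 pathway genes that passed the threshold, in each WT and *Tet2/3* DKO library, with the marker shape giving the replicate and the line the group mean. The genotypes are apart in all 8, with *Cd5*, *Cd6*, *Ubash3b*, *Cd4* and *Cd8b1* lower and *Lax1*, *Icos* and *Slamf6* higher in both *Tet2/3* DKO libraries.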

How the data were processed

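Per the labels and the paper, the authors trimmed reads with fastp 0.21.0, mapped them with STAR 2.7.5a to mm10 and the Ensembl release 100 annotation of GRCm38, and deposited, per library, the counts per gene, neither normalized nor pooled. These SMART-seq reads carry no strand or molecular identifiers, so counts taken without strand were used, reads on overlapping genes are left out of them, and reads are not independent molecules. Reads on no gene made up 3.51% to 5.70% of each library and were left out.

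The deposited counts were tested with edgeR 4.0.16 in R 4.3.3 (quasi-likelihood test with the newer moderation of dispersions, TMM scaling, filterByExpr by genotype, Benjamini-Hochberg adjustment over 13525 genes, threshold 0.01 as in the study). Groups came from the sample titles. Intervals are 95% intervals of the t distribution with the moderated degrees of freedom. CPM are counts per 1000000 of the TMM-scaled library size. Symbols, positions and exon lengths came from GENCODE M21, where 55141 of 55487 identifiers were found, and promoter windows from RefSeq, where all 9 members were found. Alternatives used DESeq2 1.42.0, other scaling, moderation, filter or threshold, strand-wise counts, a replicate block or fewer libraries. The script was tested on simulated data.

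The members and the lists were chosen with earlier results of these data known. The genes named outside the members are those of the pathway lists past the threshold, *Trac*, *Trbc1*, *Trbc2*, *Fyn*, *Csk*, *Ptprc*, *Cd4*, *Cd8a* and *Cd8b1*, the genes that check the labels, and the 3 genes of at least 10 CPM closest in profile to *Themis*. *Rnf128* was added after its values were seen. So were *Cblb*, *Socs1*, *Nck1*, *Sh2d1a*, *Shc1*, *Mapk3* and *Pik3cd*, which passed with DESeq2 or at a threshold of 0.05. Marker lists of B, myeloid, stromal and erythroid cells were also summed. In WT and *Tet2/3* DKO libraries they came to 551 to 641 and 1027 to 1229 CPM for B cells, nearly all of it *Ighm*, 112 to 125 and 151 to 224 for myeloid cells, 11.0 to 14.0 and 11.1 to 34.4 for stroma, and at most 0.34 for erythroid cells. The clonotype files were not used here.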

Additional observations from a re-analysis of the deposited data

How the results depend on the processing

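With 2 *Tet2/3* DKO libraries, a fit without 1 of them assumes that the other varies like the WT libraries. The count of members past the threshold, 0, was 2 with DESeq2, 2 at a threshold of 0.05, 1 without the filter on low counts, 0 to 2 with 1 library left out (2 without *Tet2/3* DKO replicate 1, 1 without replicate 2) and 1 without both libraries at odds with their sex labels, an alternative chosen after seeing the data, as were the strand-wise, whole-overlap and principal-transcript levels per kb. The count of pathway genes, 8, was 15 with DESeq2, 15 at 0.05, 20 without those libraries and 4 to 21 with 1 library left out. The count of all genes, 530, was 1027, 1174, 1347 and 110 to 1312. The sign turned for *Cd3d* with *Tet2/3* DKO replicate 1 left out (-0.027 to 0.27 over single libraries left out) and without both of those libraries (-0.020), for *Cd3g* with WT replicate 2 (-0.016) or *Tet2/3* DKO replicate 1 left out (-0.16 to 0.19) and without both of those libraries (-0.12), for *Lcp2* with *Tet2/3* DKO replicate 2 left out (-0.10 to 0.15) and for *Trac* likewise (-0.24 to 0.077). The cause was not tested. Of 135 comparisons of a member's log2 fold change with an alternative, 120 kept direction and side of the threshold, 6 turned and 9 newly passed it.

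Replicate numbers are shared between the genotypes, and deviations from the group means of same-numbered libraries correlated at 0.015 and 0.0045 over genes. The deviations of the DKO libraries from their mean mirror each other, so these values are not independent of each other. They cannot decide whether same-numbered libraries share more than a number, which was not tested. With the replicate block 0 members, 7 pathway genes (*Rnf128* among them, *Lax1* and *Ubash3b* not) and 359 genes in all passed the threshold.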
